A study of Oryza sativa with 16 samples.

Results

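The comparison was between desiccated seedlings of H49, a transgenic rice line that over-expresses OsHOX24, and desiccated seedlings of wild-type rice (WT), each with 2 ChIP-seq libraries made with an antibody against OsHOX24. Its members are 6287 regions of chromosomes 1 to 12, built from the summit lists of these 4 libraries, of 16253 regions that all 8 ChIP libraries of the series give. A summit is the position in a peak where enrichment was highest, and summits up to 200 bp apart were joined into a region. A region counts as called in a library that has at least 1 summit in it. Regions called in both H49 libraries and in neither WT library are termed H49-only and number 161, regions called in both WT libraries and in neither H49 library are termed WT-only and number 71, and 325 regions were called in all 4 libraries.

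Seedlings of both genotypes were 3 weeks old, grew in hydroponics at 28 °C and were kept for 3 h without water on dry paper. Among the 16 samples of the series are 8 ChIP libraries; the 4 not compared here came from H49 and WT seedlings that stayed in water (control), and they serve as data that the region sets did not draw on. WT plants carry the endogenous OsHOX24 gene, so that WT is a reference with normal OsHOX24 and not one without the antigen. H49 is a single transgenic line; the sources used here do not name the promoter of its transgene, and the level of OsHOX24 in H49 could not be checked in lists of summits. Nothing in the labels tells whether replicates are separate plants, so that the spread between them may be technical.

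OsHOX24 belongs to subfamily I of the homeodomain-leucine zipper (HD-Zip) transcription factors, a family found in plants. The homeodomain contacts DNA, and the leucine zipper next to it joins a pair of proteins, so that they bind short palindromic AT-rich elements as dimers. Members of subfamily I are known for their part in responses to water deficit and to abscisic acid, and OsHOX24 transcripts are known to accumulate in desiccated rice. Over-expression lines are used to ask whether more of the factor leads to more, or other, binding sites, which is the question this comparison addresses.

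The numbers of summits were close in the 2 genotypes, and the 4 lists differed more in the values given with their summits than in length. On chromosomes 1 to 12 the H49 lists held 2336 and 2359 summits and the WT lists 2690 and 2172, a mean of 2348 ± 16.3 (SD, n = 2) in H49 and 2431 ± 366 in WT. The value given with each summit is the −log10 of the peak caller's p-value, with a lowest value just above 3 in each list. It grows with read number, which is unknown here, so that its size is not comparable between libraries; strength is given as a percentile within a list (100 is the strongest summit), and the raw values describe single regions. The median of the raw value was 6.37 and 7.71 in H49 replicates 1 and 2, and 6.10 and 20.1 in WT replicates 1 and 2. In this value WT replicate 2 stood apart from the other libraries, and the part of read number in that was not tested. The smallest exact two-sided permutation p for 2 against 2 libraries is 0.333, and no test of genotype was made. The values that follow are therefore descriptions of these 4 libraries.

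Most regions were called in a single library, and the regions of a clear genotype pattern were a small share. Of the 6287 regions, 4204 (66.9%) were called in 1 library, 1228 in 2 and 530 in 3. The H49-only regions were 2.56% of all regions, the WT-only regions 1.13% and the regions called in all 4 libraries 5.17%. The H49 libraries overlapped each other more than the WT libraries did: 905 regions were called in both H49 libraries (Jaccard index, the shared regions over those called in either, 0.239), against 507 in both WT libraries (0.117). Between genotypes the index was 0.198 for H49 replicate 1 with either WT library, 0.178 for H49 replicate 2 with WT replicate 1 and 0.290 for H49 replicate 2 with WT replicate 2. The highest of the 6 indices thus belonged to a pair of different genotypes, and the lowest to the WT replicates.

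Only a minority of the regions called in both libraries of a genotype were absent from the other genotype. Of the 905 regions called in both H49 libraries, 161 (17.8%) were called in neither WT library, 419 (46.3%) in 1 and 325 (35.9%) in both. Of the 507 regions called in both WT libraries, 71 (14%) were called in neither H49 library, 111 (21.9%) in 1 and 325 (64.1%) in both. WT replicate 1 called 498 and WT replicate 2 called 571 of the 905 H49 regions, while H49 replicates 1 and 2 called 389 and 372 of the 507 WT regions. Set sizes were given by how many libraries a set needs, and they rose by construction when a library was left out. Without WT replicate 1 there were 329 H49-only regions, and without WT replicate 2 there were 406, where a set needs only the libraries that remain. Without H49 replicate 1 there were 135 WT-only regions, and without H49 replicate 2 there were 118. Removing a library of a set's own genotype raised its count further, to 962 and 1165 H49-only regions without H49 replicates 1 and 2, and to 987 and 1596 WT-only regions without WT replicates 1 and 2.

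Equal list lengths changed the proportions of the sets little, while the strongest summits alone held few WT-only regions. With the 2172 strongest summits of each list there were 5684 regions, of which 153 were H49-only (2.69%), 67 WT-only (1.18%) and 311 called in all 4 (5.47%). Of the original sets, 134 of 161 H49-only, 63 of 71 WT-only and 311 of 325 common regions met their criterion again. With the 1086 strongest summits of each list there were 50 H49-only regions (1.85% of 2704), 4 WT-only regions (0.148%) and 199 common regions (7.36%). Only 12 of these 50 regions belonged to the original H49-only set, since a region enters the set when its WT summits fall below the limit; all 4 WT-only regions belonged to theirs.

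By median percentile, the common regions ranked high in all 4 lists, whereas the H49-only regions ranked below the middle of both H49 lists. The WT-only regions ranked near the middle of 1 WT list and low in the other. The median percentile of the H49-only regions was 38.2 in H49 replicate 1 and 39.6 in H49 replicate 2. The WT-only regions had a median percentile of 56.0 in WT replicate 1 and 22.8 in WT replicate 2. The common regions had medians of 88.3 and 88.4 in the H49 libraries and 92.3 and 81.3 in the WT libraries. They spread most in WT replicate 2, where 166 (51.1%) lay in the top 25% and 53 (16.3%) in the bottom 25% of the list. In the top 25% of every list that defines the set lay 4 of 161 H49-only regions, 3 of 71 WT-only regions and 153 of 325 common regions. In the lower 50% of every such list lay 68 H49-only, 30 WT-only and 7 common regions. Common regions had to qualify in 4 lists and the other sets in 2. This is stricter, so that the common counts are lowered in part by construction. A −log10 p of at least 10 in each defining library, a limit that lists with higher values pass more easily, was reached by 6 H49-only, 4 WT-only and 186 common regions.

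**Figure D1:**
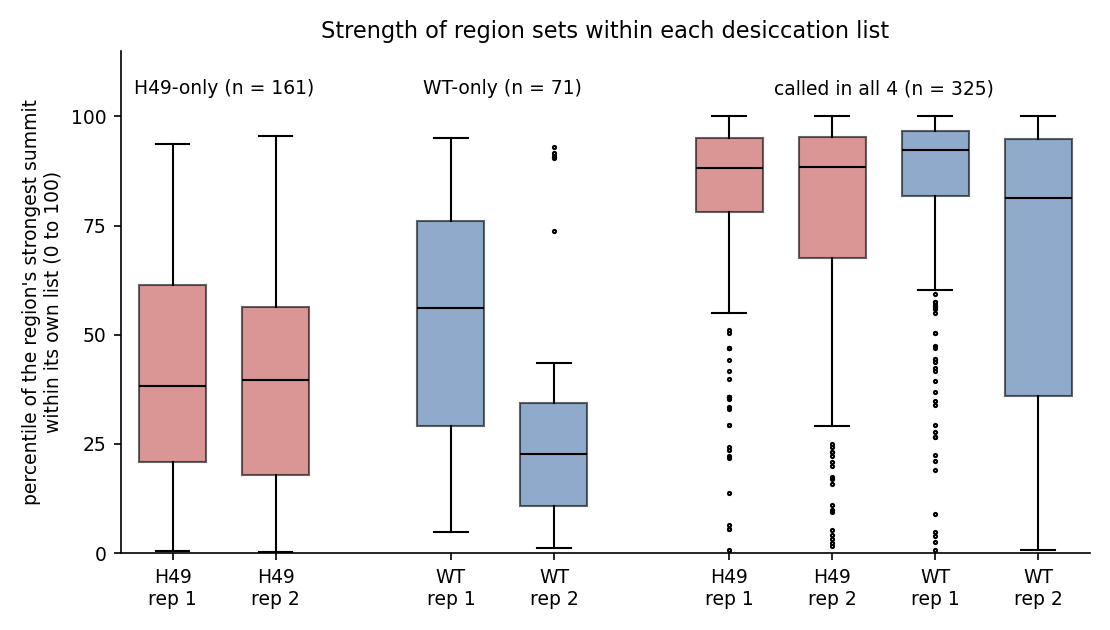
Percentile (0 to 100) of each region's strongest summit within its own desiccation list, for 161 H49-only, 71 WT-only and 325 common regions; boxes span the middle 50% with the median as a line, whiskers reach 1.5 times the box height and dots lie beyond. The H49-only boxes have medians of 38.2 and 39.6, the WT-only boxes 56.0 and 22.8, and the common regions 81.3 to 92.3.

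Absence from the other genotype was most frequent among weak regions. The 905 regions called in both H49 libraries were ordered by their mean percentile and cut into 4 parts. In the weakest part 86 of 226 (38.1%) were called in neither WT library and 22 (9.73%) in both, and in the next part 63 (27.9%) were called in neither. In the strongest part 3 of 227 (1.32%) were called in neither WT library and 161 (70.9%) in both. For the 507 regions called in both WT libraries, 41 of 126 (32.5%) of the weakest part were called in neither H49 library, against 1 of 127 (0.787%) of the strongest part, of which 124 (97.6%) were called in both. Both genotypes showed the same order from the weakest to the strongest part.

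**Figure D2:**
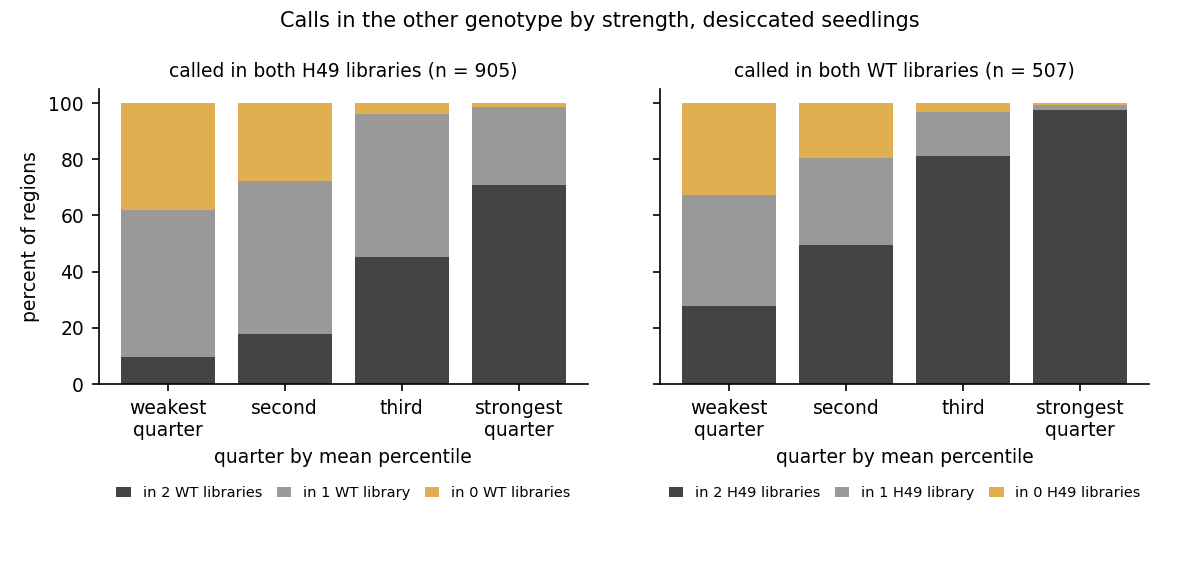
Percent of the regions called in both H49 libraries (left, n = 905) and in both WT libraries (right, n = 507) that were called in 2, 1 or 0 libraries of the other genotype, in 4 parts by mean percentile within the lists. The share called in 0 libraries of the other genotype lies between 38.1% and 1.32% for H49 regions and between 32.5% and 0.787% for WT regions, falling with strength.

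A share of the H49-only and WT-only regions had a summit of the other genotype nearby. Up to 300 bp away there was one for 17 of 161 H49-only regions (10.6%) and for 10 of 71 WT-only regions (14.1%). The median distance from an H49-only region to the closest WT summit was 1191 bp, and 69 of 161 (42.9%) had one up to 1000 bp away. From a WT-only region to the closest H49 summit the median was 1249 bp, and 30 of 71 (42.3%) had one up to 1000 bp away. These shares were above those of regions called in a single library and absent from the other genotype, which were 32.3% of 1776 H49 regions and 28.5% of 2428 WT regions. Regions more than 1000 bp from the other genotype's summits numbered 92 in H49 and 41 in WT; this criterion was added after the data were seen. The centre of a common region lay within 10 kb of 16 H49-only regions (9.94%) and 6 WT-only regions (8.45%), close to the 9.90% of the 5730 regions of other patterns.

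**Figure D3:**
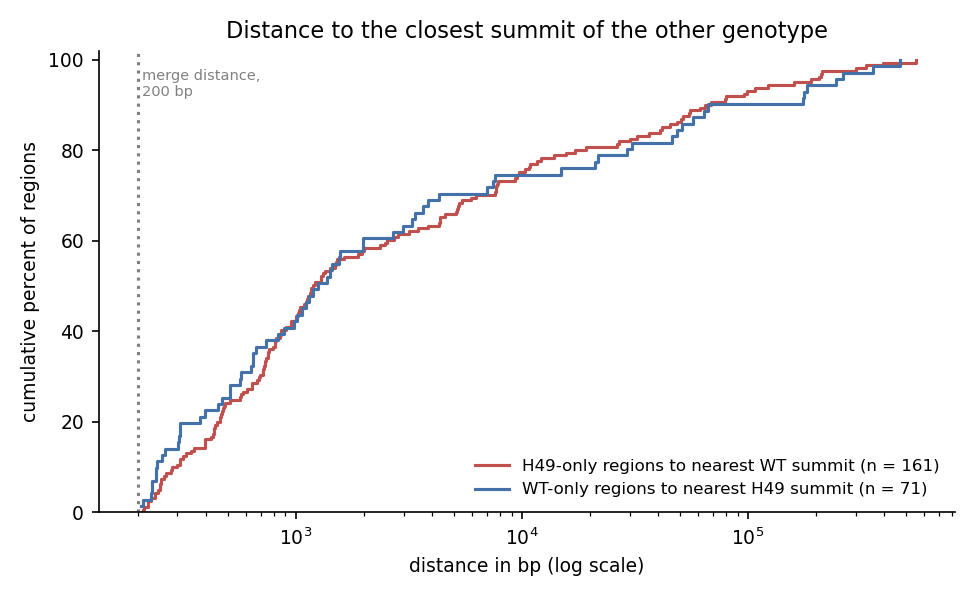
Cumulative percent of 161 H49-only regions by distance in bp (log axis) to the closest WT summit, and of 71 WT-only regions by distance to the closest H49 summit; the dotted line is the merge distance of 200 bp. Both curves pass 40% at about 1000 bp, with medians of 1191 and 1249 bp.

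The regions next to the limit of 200 bp show how a call can turn on a few bases. Chr1:38189034-38189244 was H49-only, with −log10 p of 9.27 and 7.497 in H49 replicates 1 and 2, and its closest WT summit was 212 bp away. That summit belongs to the WT-only region Chr1:38189256-38189579, with 5.93 and 6.46 in WT replicates 1 and 2. The other H49-only regions closest to the limit were Chr7:23517442-23517694 (14.6 and 13.3 in H49, WT summit at 213 bp) and Chr10:20463162-20463380 (4.04 and 9.88 in H49, WT summit at 223 bp). The WT-only region closest to the limit was Chr12:7889225-7889582, with 10.01 and 5.28 in WT and an H49 summit at 207 bp. Just inside the limit, Chr2:7383861-7384268 was called in both H49 libraries (7.03 and 5.79) and in WT replicate 2 (6.23) with H49 and WT summits 196 bp apart, and Chr12:13376059-13376468 (10.7 and 20.9 in H49, 43.9 in WT replicate 2) with summits 195 bp apart.

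The control libraries, which played no part in the choice of regions, held the common regions far more often than the H49-only and WT-only ones. A region counted as found in a control library that had a summit in it or up to 200 bp beyond its outermost summits. Common regions were found at 88.6% and 92.9% in H49 control replicates 1 and 2 and at 92.6% and 93.5% in WT control replicates 1 and 2. H49-only regions were found at 34.2% and 30.4% in the H49 control libraries and at 39.8% and 44.7% in the WT control libraries. WT-only regions were found at 49.3% and 56.3% in the H49 control libraries and at 66.2% and 35.2% in the WT control libraries. Over all 6287 regions the shares were 26.4% and 27.5% in H49 control and 37.3% and 29.1% in WT control, and over the 2083 regions called in at least 2 desiccation libraries 44.6% and 49.3% in H49 control and 53% and 59% in WT control.

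With 200 bp added on each side, H49-only and WT-only regions of desiccated seedlings were found in the other genotype in water more often than all regions; beside regions called in at least 2 desiccation libraries, H49-only regions were found less often and WT-only regions more often. H49-only regions averaged 32.3% ± 2.64 (SD, n = 2) in H49 control and 42.2% ± 3.51 in WT control, a difference of −9.94 percentage points. The regions called in at least 2 desiccation libraries gave a difference of the same sign and of similar size, −9.03 points. Those 2083 regions include 530 called in 3 libraries and the 325 common regions, which were found in control most often. H49-only and WT-only regions are called in 2 libraries by definition, so that the comparison is not with regions of equal call number. WT-only regions averaged 52.8% ± 4.98 in H49 control and 50.7% ± 21.9 in WT control, a difference of 2.11 points that was smaller than the spread between the WT control replicates. At least 1 H49 control library held 71 of the 161 H49-only regions (44.1%), and at least 1 WT control library held 107 (66.5%). Over all regions these shares were 37.8% for H49 control and 50.6% for WT control, and over the regions called in at least 2 desiccation libraries they were 59.3% for H49 control and 77.2% for WT control. At least 1 H49 control library held 50 of the 71 WT-only regions (70.4%), and at least 1 WT control library held 52 (73.2%). These counts rest on the added 200 bp: with only the span between a region's outermost summits, 24 H49-only regions (14.9%) were held by an H49 control library and 34 (21.1%) by a WT control library, and 24 WT-only regions (33.8%) were held by an H49 control library and 25 (35.2%) by a WT control library. The control lists differed in length, from 3166 summits in WT control replicate 2 to 9345 in WT control replicate 1. With all 4 cut to their 3166 strongest summits the H49-only difference was −4.97 points and the WT-only difference 4.93 points.

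**Figure D4:**
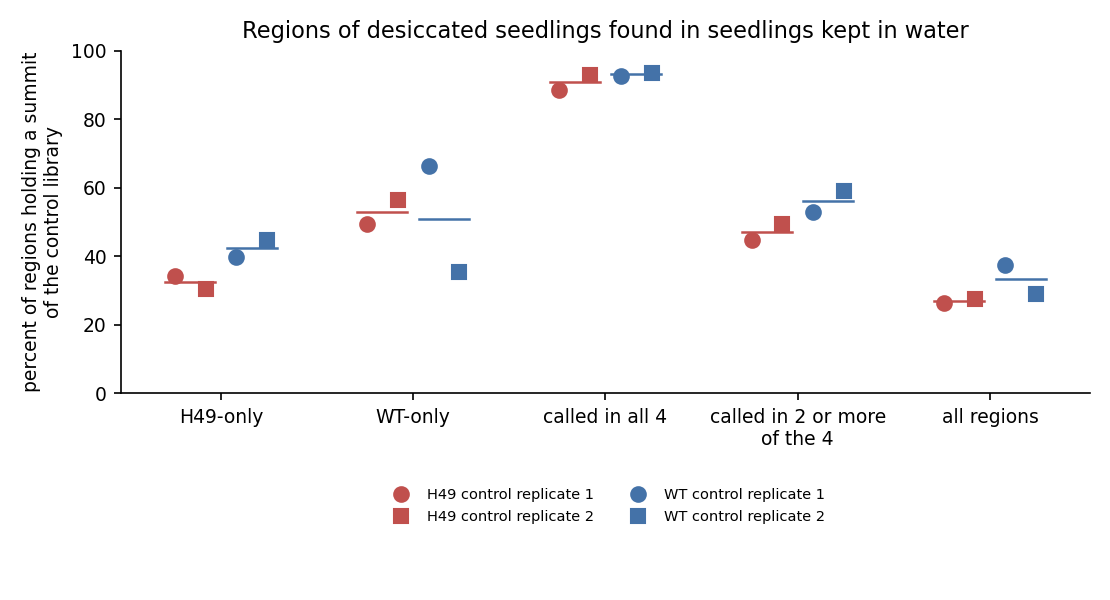
Percent of regions of desiccated seedlings that held a summit of each control library (points, H49 control left of WT control, with group means of 2 as lines), for H49-only (n = 161), WT-only (n = 71) and common regions (n = 325), regions called in at least 2 desiccation libraries (n = 2083) and all 6287 regions. The common regions lie between 88.6% and 93.5%; for H49-only regions both H49 control points (34.2% and 30.4%) lie below both WT control points (39.8% and 44.7%).

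A small number of regions had the same genotype pattern under both treatments, and a small number had the opposite pattern in control. Of the 161 H49-only regions, 4 (2.48%) were also found in both H49 control libraries and in neither WT control library, against 87 of all 6287 regions (1.38%). Of the 71 WT-only regions, 3 (4.23%) were found in both WT control libraries and in neither H49 control library, against 1.67% of all regions. The opposite pattern was found for 6 H49-only regions (3.73%), held by both WT control libraries and neither H49 control library. It was found for 2 WT-only regions (2.82%), held by both H49 control libraries and neither WT control library. Among the 4 H49-only regions that kept their pattern, Chr12:20611588-20611825 had the highest values. Its −log10 p was 30.6 and 76.9 in desiccation and 15.0 and 54.5 in control. The other 3, Chr1:38189034-38189244, Chr2:27888804-27889139 and Chr4:26361137-26361471, had values from 3.52 to 11.3 in the 4 H49 libraries. All 4 had a WT desiccation summit 212 to 903 bp away. Among the 3 WT regions, Chr2:26143943-26144178 had 10.4 and 11.5 in desiccation and 15.3 and 15.5 in control, with an H49 desiccation summit 396 bp away, and Chr2:5931379-5931627 had 4.75 and 4.17 in desiccation and 30.0 and 4.23 in control, with one at 2986 bp. For Chr1:28523851-28524176, with 10.3 and 5.83 in desiccation and 21.6 and 9.71 in control, the closest H49 desiccation summit lay 63997 bp away.

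Some H49-only regions were found in no control library, and those of them far from any WT desiccation summit were of modest strength. The search in control libraries took in 200 bp beyond a region's outermost summits. No control library held 40 of the 161 H49-only regions (24.8%), 12 of the 71 WT-only regions (16.9%) and 4 of the 325 common regions (1.23%). Over all regions the share was 41.2%, and over regions called in at least 2 desiccation libraries it was 17.4%. Without the added 200 bp the H49-only count would be higher: an H49 control library held 24 of the 161 and a WT control library 34. Of the 40 H49-only regions, 25 lay more than 1000 bp and 14 more than 10 kb from any WT desiccation summit. The 14 had −log10 p of 3.36 to 10.4 in H49 replicate 1 and 3.23 to 12.2 in H49 replicate 2. Higher values occurred among the rest of the 40, such as 15.4 in H49 replicate 2 at Chr5:24442819-24443095, with a WT summit at 230 bp. Of the 14, the highest by mean percentile were Chr5:25441960-25442164 (10.4 and 11.4 in H49, closest WT summit at 45176 bp) and Chr1:6259440-6259674 (8.88 and 12.2, closest WT summit at 212017 bp). They were followed by Chr7:5897862-5898078 (8.45 and 7.81), Chr7:27669347-27669619 (5.52 and 8.72) and Chr10:21930472-21930762 (4.94 and 10.6). Of the 12 WT-only regions, 1 lay more than 10 kb from any H49 summit, Chr9:15016748-15017091, with 4.13 and 4.63 in WT. These criteria were set after the values were seen.

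The strongest H49-only and the strongest WT-only region lay next to each other on chromosome 12. By mean percentile the first H49-only region was Chr12:20557627-20558014, with −log10 p of 37.2 and 77.8 in H49 replicates 1 and 2. The first WT-only region was Chr12:20558384-20558633, with 17.2 and 83.8 in WT replicates 1 and 2, and their closest summits were 570 bp apart. The H49-only region was found in all 4 control libraries, at 29.7 and 99.8 in H49 control and 41.2 and 111.6 in WT control, whereas the WT-only region was found in none. The second of each set lay close by as well: Chr12:20611588-20611825 in H49 (30.6 and 76.9, with a WT summit at 903 bp) and Chr12:20550409-20550708 in WT (10.2 and 77.6, with an H49 summit at 1063 bp). Within 100 kb on each side of the first H49-only region there were 80 regions, of which 2 were H49-only, 3 WT-only and 3 common. The stretch held 28 and 12 summits of H49 replicates 1 and 2 and 61 and 16 of WT replicates 1 and 2, so that replicates of the same genotype differed widely there.

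**Figure D5:**
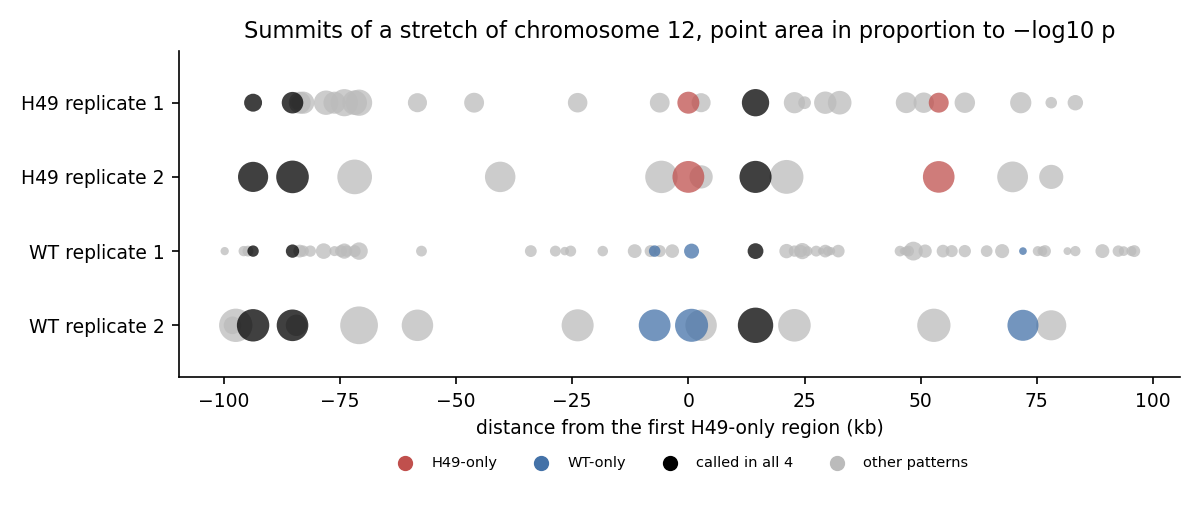
Summits within 100 kb on each side of the first H49-only region on chromosome 12, by distance in kb, with a row for each desiccation library; the area of a point is in proportion to −log10 p and its colour gives the set of its region. The 80 regions hold 28, 12, 61 and 16 summits from the top row to the bottom row, and the H49-only and WT-only regions at the centre are 570 bp apart.

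The remaining H49-only regions with high ranks had a range of neighbours. Chr1:39126502-39126726 had 26.9 and 42.7 in H49, a WT summit 317 bp away, and was found in H49 control replicate 2 (66.9) and WT control replicate 1 (27.0). Chr10:10830934-10831147 had 11.4 and 23.2 in H49, a WT summit at 1134 bp, and was found in WT control replicate 2 (29.0). Chr6:23368907-23369153 had 10.7 and 9.24 in H49 and a WT summit at 2491 bp, and was found in all 4 control libraries. Chr5:12886780-12886986 (8.04 and 13.6) and Chr8:6169445-6169720 (8.45 and 11.4) had WT summits at 283 and 575 bp. With merge distances of 100, 500 and 1000 bp, 56 of the 161 H49-only regions met the criterion each time. Of these, 4 also met it with the 2172 and with the 1086 strongest summits of each list. The cut to 2172 summits alone kept 134 of the 161, and the cut to 1086 kept 12. The 4 that met every setting were Chr10:10830934-10831147, Chr5:25441960-25442164, Chr1:6259440-6259674 and Chr6:23368907-23369153. The first of them lies in the stretch of chromosome 10 from 10800000 to 10899999. WT replicate 1 had no summit anywhere in that stretch, so that it could call no region there.

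The WT-only regions with high ranks differed in which WT replicate ranked them higher. Chr1:33586826-33587076 was at percentiles of 80.9 and 90.9 in WT replicates 1 and 2. It had −log10 p of 9.05 in WT replicate 1 and 75.01 in WT replicate 2, an H49 summit at 1414 bp, and was found in H49 control replicate 2 (52.4) and WT control replicate 1 (38.5). Chr9:4707961-4708221 was at percentiles of 22.5 and 90.4, with 4.74 and 73.1; it had an H49 summit at 1977 bp, and was found in H49 control replicate 2 (53.9). Chr1:23311826-23312068 was at percentiles of 89.0 and 73.8, with 11.4 and 37.3; it had the closest H49 summit at 262479 bp, and was found in WT control replicate 1 (11.6). The others ranked higher in WT replicate 1, at percentiles of 78.2 to 85.1 there and 27.4 to 40.1 in WT replicate 2: Chr5:24323682-24323948 (8.66 and 11.7, H49 summit at 229 bp), Chr12:3110462-3110706 (10.01 and 9.05, found in all 4 control libraries), Chr1:40191589-40191815 (8.63 and 9.59) and Chr3:1441161-1441425 (10.01 and 7.32). Across the merge distances 31 of 71 WT-only regions met the criterion each time. Of these, 3 also met it with the 2172 and with the 1086 strongest summits of each list: Chr12:20550409-20550708, Chr1:33586826-33587076 and Chr1:23311826-23312068. The cut to 2172 summits alone kept 63 of the 71, and the cut to 1086 kept 4.

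Within the common regions, summits lay about as close between genotypes as within a genotype, and the orders of strength were similar. The median distance between the strongest summits of 2 libraries in a common region was 23 bp between the H49 libraries, 28 bp between the WT libraries and 20 to 29 bp between an H49 and a WT library. Short distances follow in part from the merge rule, which joins summits up to 200 bp apart, so they are no separate evidence of shared positions. Spearman's rank correlation of −log10 p over the 325 common regions was 0.857 between the H49 libraries, 0.677 between the WT libraries and from 0.680 to 0.889 between genotypes, a description of regions that share their libraries and were all selected as called in all 4.

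The strongest common regions were called in all 4 control libraries too. Chr3:5944473-5944700 was the strongest summit of every desiccation list, with −log10 p of 152 and 271 in H49 replicates 1 and 2 and 137 and 456 in WT replicates 1 and 2. Chr9:21917073-21917274 had 117 and 166 in H49 and 84.7 and 209 in WT. Chr2:21656709-21656962 had 103 and 150 in H49 and 70.9 and 166 in WT, and Chr12:1793314-1793552 had 90.0 and 162 in H49 and 63.3 and 126 in WT. Chr2:21093462-21093712, Chr2:28588719-28588921 and Chr5:4660111-4660325 came next, at means of 101, 122 and 99.3 over the 4 libraries. Chr12:8557162-8557381, Chr6:28400638-28400856 and Chr4:16289151-16289371 followed at means of 91.2, 96.4 and 88.8. The 4 common regions found in no control library were weaker: Chr2:28989371-28989923 (8.16 and 9.61 in H49, 9.47 and 5.17 in WT), Chr3:31604065-31604448 (9.85 and 3.27 in H49, 9.52 and 4.55 in WT), Chr5:6781897-6782176 (7.03 and 7.74 in H49, 6.70 and 9.03 in WT) and Chr8:23622639-23622928 (10.4 and 9.13 in H49, 6.41 and 14.3 in WT).

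The shares of the sets by chromosome differed, with no test of the difference. Chromosome 12 held 5 of 161 H49-only regions (3.11%), 6 of 71 WT-only regions (8.45%) and 43 of 325 common regions (13.2%), against 7.06% of all 6287 regions. Chromosome 10 held 11 H49-only regions (6.83%), 0 WT-only regions and 5 common regions (1.54%), against 7.17% of all regions. Of these 11, 5 lay from 10800000 to 10899999 and 4 from 20400000 to 20499999. WT replicate 1 had no summit in either stretch, so that no WT-only or common region could be called there. Chromosome 10 held 3.61% of the summits of WT replicate 1 and 11.6% of those of WT replicate 2. Chromosome 7 held 16 H49-only regions (9.94%), 4 WT-only (5.63%) and 11 common regions (3.38%), against 5.57% of all. Chromosome 1 held the most of each set, with 37 H49-only (23.0%), 15 WT-only (21.1%) and 60 common regions (18.5%), against 17.3% of all.

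Dense bins, defined as stretches of 100 kb with a mean of 0.5% or more of the summits of a desiccation list, differed most between the WT replicates. There were 16 such bins, and they held 12.9% and 20.9% of the summits of H49 replicates 1 and 2 and 4.42% and 26.9% of those of WT replicates 1 and 2. WT replicate 1 had no summit in 7 of the 16, whereas the other 3 libraries had summits in all. Of the H49-only regions 20 (12.4%) lay in dense bins, against 2 WT-only regions (2.82%), 53 common regions (16.3%) and 12.7% of all regions. Of the 20, 14 lay in the 7 bins without WT replicate 1, where a WT-only or common region cannot be called. The bin of chromosome 10 from 10800000 to 10899999 held 5 H49-only regions and 123 regions in all, with 1.80% and 3.48% of the H49 summits and 0 and 4.70% of the WT summits in replicates 1 and 2. The bin of chromosome 12 from 13300000 to 13399999 held 14 common regions and no H49-only or WT-only one. Without dense bins 141 H49-only, 69 WT-only and 272 common regions remained. The part of WT replicate 1 in the H49-only regions of these bins was not tested.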

How the data were processed

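Per the series' design text, NGS QC Toolkit removed low-quality reads, Bowtie2 placed the rest on the rice genome (MSU version 7) and MACS2 called peaks. Per the submitters' processing notes MACS2 was version 2.1.1.20160309. The authors deposited 1 list of summits for each library, with a −log10 p-value for each summit; that unit was read from the MACS2 summit format, the lowest value of about 3 and a tag in the peak names taken as a p threshold of 0.001. The use of inputs as background, and of the Bedops step that the design text names, was not given in the sources used here. Read depth is unknown, so no interval or detection limit was given, and a missing summit means not called. The input samples were not analysed here.

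Summits on chromosomes 1 to 12 of the 4 desiccation lists were merged by single linkage (200 bp) in Python 3.11.15 with pandas 2.3.3, and region limits were drawn 100 bp beyond the outermost summits, counted from 1. The merging was tested on simulated lists with planted regions. Planted summits lay well within the merge distance and apart from the random ones, so summits near the limit and dense bins were not covered. Regions named are the 10 of each set with the highest mean percentile in the defining libraries, and those that kept their set under each merge distance and equal-number setting; others are said to be chosen after the values were seen, or are next to a limit or repeated under both treatments, groups also chosen afterwards. The members, lists and limits were chosen with earlier results of these data known. Gene positions and sequences of MSU version 7 were not used here, so the planned counts of genes, motifs and gene lists were not made.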

Additional observations from a re-analysis of the deposited data

Results flagged for a closer look

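Outside chromosomes 1 to 12, on unplaced sequences that entered no comparison, H49 desiccation replicates 1 and 2 had 4 and 5 summits and WT desiccation replicates 1 and 2 had 1 and 21, against 3 to 10 in the control libraries. WT desiccation replicate 2 was singled out because its 21 summits lay above the highest control library; their origin was not tested.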

How the results depend on the processing

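No paired analysis was possible because the results are counts and shares of regions that come from no test. Merge distances of 100, 500 and 1000 bp, equal list lengths, leaving out dense bins and merging over all 8 lists kept every set within 1.5 times its count (111 to 164 H49-only, 55 to 71 WT-only and 272 to 382 common regions). The 1086 strongest summits of each list gave 50 H49-only, 4 WT-only and 199 common regions. A −log10 p of at least 5 gave 106 H49-only regions, and at least 10 gave 22 H49-only, 9 WT-only and 186 common regions. Without summits of the other genotype up to 1000 bp away, a limit chosen after seeing the data, 92 H49-only and 41 WT-only regions were left. Leaving out 1 library at a time gave 329 to 1165 H49-only, 118 to 1596 WT-only and 362 to 558 common regions, because each set then rests on 3 libraries. The mean share found in the control libraries was 37.3% for H49-only, 51.8% for WT-only and 91.9% for common regions. It was 10.1%, 19.0% and 58.2% without widening, and 48.4% for H49-only regions with 500 bp of widening. Leaving out 1 of the 8 libraries moved it between 21.9% and 48.6%, 16.2% and 60.2%, and 76.6% and 93.0%. The H49 control minus WT control difference stayed below 0 for H49-only regions in all 13 alternatives (from −14.3 to −2.45 points), while for WT-only regions it ran from −13.4 to 17.6 points. A difference below 0 was not particular to H49-only regions. With the main settings it was −6.25 points over all regions and −9.03 points over regions called in at least 2 desiccation libraries. No alternative settings are given for these 2 backgrounds. Unknown read depth limits every statement on absence.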
